A study of Saccharomyces cerevisiae with 13 samples.

Results

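The small nucleolar RNA (snoRNA) genes are the 76 count rows whose name is snR followed by a number, out of 7126 gene rows in the libraries from plasmid-bearing cells and 7125 in the libraries without plasmid. The 5 rows that carry such a name but encode spliceosomal RNAs (snR6, snR14, snR19 and the 2 forms of snR7) were left out. By their known class, 47 of the 76 members are C/D box and 29 are H/ACA box snoRNAs. By their place in the genome, 8 lie in introns of host genes, 17 lie in 5 polycistronic units and 51 are independent genes.

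C/D box snoRNAs pair with rRNA and guide 2′-O-methylation by Nop1 together with Nop56, Nop58 and Snu13, whereas H/ACA box snoRNAs guide pseudouridylation by Cbf5 together with Nhp2, Nop10 and Gar1. A few snoRNAs do not mainly modify rRNA but are needed for cleavage of its precursor, and some guide acetylation. In yeast, RNA polymerase II makes snoRNA precursors, transcription ends through the Nrd1-Nab3-Sen1 complex, and the ends are cut by Rnt1 and trimmed by the nuclear exosome after addition of a short A tail by the TRAMP complex.

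The study used *S. cerevisiae* BY4741, a haploid laboratory strain with auxotrophic marker deletions that all groups share, and asked which genes respond to caffeine and which depend on the transcription factor Yap1. WT without plasmid was treated with caffeine for 1 h (2 libraries, both titled 50 mM, the second with 51 mM in its treatment label) or left untreated (2 libraries). The other groups were a *yap1* null mutant (yap1::KANMX) with the empty high-copy vector pRS426ADH, WT with pRS426ADH-YAP1, in which the *ADH1* promoter drives *YAP1*, listed by the study with a TAP tag (YAP1 OE below), and WT with the empty vector, with 3 libraries each and no caffeine named in their labels. The medium of each library (YEPD or SD) is not given, so plasmid and no-plasmid libraries were not compared. The labels do not say whether replicate libraries came from separate cultures, and the p-values measure only the spread between these libraries.

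Libraries were made with QuantSeq, which primes cDNA on A stretches with oligo(dT), and the authors deposited raw read counts per gene. Mature snoRNAs carry no long poly(A) tail, so the counts record adenylated or internally primed molecules from these genes and not the amount of mature snoRNA. Strand was not used in the counting, so reads of an overlapping or facing gene cannot be told apart from those of a snoRNA gene. Values below are CPM, the counts of a gene scaled to a common library total after TMM normalization, which sets the libraries of 1 fit on a common scale. The 9 plasmid libraries and the 4 others were scaled apart.

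The sequences of the snoRNAs on which the results turn were read from the RefSeq R64 assembly, the same assembly as the sacCer3 build used by the authors. The 6 C/D members shown first include the 5 with the largest fall after caffeine. Capitals mark the C box TGATGA where it lies within the first 15 bases and the D box CTGA where it lies within the last 15 bases. snR77, snR76, snR74 and snR73 belong to 1 polycistronic unit on chromosome XIII, snR67 lies at chrV:61352-61433, and snR54 lies in the intron of *IMD4*.
snR77: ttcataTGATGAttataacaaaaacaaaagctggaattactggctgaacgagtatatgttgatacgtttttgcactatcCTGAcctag
snR76: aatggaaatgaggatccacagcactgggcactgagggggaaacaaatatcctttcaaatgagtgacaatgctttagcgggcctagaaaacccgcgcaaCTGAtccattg
snR74: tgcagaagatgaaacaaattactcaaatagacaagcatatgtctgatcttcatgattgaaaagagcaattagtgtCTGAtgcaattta
snR73: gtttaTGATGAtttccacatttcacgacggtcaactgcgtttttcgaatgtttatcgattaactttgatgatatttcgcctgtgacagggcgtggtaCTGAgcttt
snR67: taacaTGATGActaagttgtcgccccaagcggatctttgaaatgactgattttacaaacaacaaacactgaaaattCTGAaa
snR54: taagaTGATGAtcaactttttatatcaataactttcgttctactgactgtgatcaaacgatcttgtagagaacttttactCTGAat

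Sequences of H/ACA members are shown for snR11 (chrXIII:652275-652532) and snR5 (chrXV:842403-842606), which rose after caffeine, and for snR82 (chrVII:316788-317055), the only member called between *yap1* and YAP1 OE. All lie on the plus strand. Capitals mark ACA at 3 bases from the annotated end, which snR5 and snR82 do not have in that place.
snR11: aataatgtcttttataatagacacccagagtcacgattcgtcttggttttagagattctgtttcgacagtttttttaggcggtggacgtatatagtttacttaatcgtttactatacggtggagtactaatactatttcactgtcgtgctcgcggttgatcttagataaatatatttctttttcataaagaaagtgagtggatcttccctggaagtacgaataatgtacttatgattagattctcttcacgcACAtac
snR5: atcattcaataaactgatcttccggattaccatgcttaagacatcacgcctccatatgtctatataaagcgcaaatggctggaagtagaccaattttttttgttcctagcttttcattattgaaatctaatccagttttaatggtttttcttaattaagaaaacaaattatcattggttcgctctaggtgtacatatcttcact
snR82: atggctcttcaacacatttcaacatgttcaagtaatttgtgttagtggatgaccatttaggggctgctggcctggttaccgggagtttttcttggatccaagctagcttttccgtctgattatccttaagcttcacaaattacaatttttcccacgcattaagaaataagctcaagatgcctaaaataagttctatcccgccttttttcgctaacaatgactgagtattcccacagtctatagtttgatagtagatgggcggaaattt

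The C/D boxes were found in most C/D members, and ACA in its usual place in fewer of the H/ACA members. TGATGA lay within the first 15 bases of 36 of 47 C/D members, 1 of 29 H/ACA members and 0.747% of 6021 protein-coding genes. CTGA lay within the last 15 bases of 45 of 47 C/D members, 1 of 29 H/ACA members and 7.84% of protein-coding genes. ACA at 3 bases from the end was found in 14 of 29 H/ACA and 3 of 47 C/D members. Only the strand of the gene was searched for these boxes.

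A stretch of at least 10 bases next to a D or D′ box that pairs with rRNA, with the fifth base before the box opposite an annotated methylation site, was found in 23 of 47 C/D members. For 4 of the members that fell most after caffeine, the guide and the rRNA bases it pairs with are shown, with the pairing base at the methylation site in capitals. The sites are position 2197 of the 25S rRNA for snR76, position 28 of the 18S rRNA for snR74, position 2724 of the 25S rRNA for snR67 and position 974 of the 18S rRNA for snR54. The rRNA is written with T.
snR76 guide: agcactGggca
snR76 target in rRNA: tgccCagtgct
snR74 guide: agacaagcaTatg
snR74 target in rRNA: catAtgcttgtct
snR67 guide: acactgaAaat
snR67 target in rRNA: attTtcagtgt
snR54 guide: taactttcgTtct
snR54 target in rRNA: agaAcgaaagtta

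Some members share their target region. snR39 and snR59 lie in introns of the paralogs *RPL7A* and *RPL7B* and both point at position 807 of the 25S rRNA, whereas snR39B, an independent gene near snR39, points at position 805. The guides shown are 13 or 14 bases long. Whether reads align to more than 1 of these genes was not tested, and multiple alignments were counted.
snR39 guide: tcaccatctTtcg
snR39 target in rRNA: cgaAagatggtga
snR59 guide: tcaccatctTtcgg
snR59 target in rRNA: ccgaAagatggtga
snR39B guide: caccatctttCggg
snR39B target in rRNA: cccGaaagatggtg

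The snoRNA rows took up a small share of each library. Total counts were between 15508616 and 25609092 per library, and the 15 rRNA rows held between 43.84% and 74.97% of them with plasmid and between 14.7% and 27.4% without. Of the counts outside the rRNA rows, snoRNA rows held 0.189% and 0.210% in caffeine-treated WT and 0.127% and 0.282% in untreated WT. The share was 0.409%, 0.451% and 0.520% in *yap1*, 0.529%, 0.569% and 0.446% in YAP1 OE, and 0.549%, 0.879% and 0.484% in WT with vector. The 2 untreated libraries differed widely, replicate 2 being the higher one for 74 of 76 members, and both caffeine libraries lay between them in this share. With only 2 libraries the data do not show which of them is unusual. In WT with vector, replicate 2 stood apart as the highest of the 3 for 55 of 76 members. Results that rest on one of these libraries are given with and without it. *YAP1* itself followed the labels, with 8, 2 and 22 counts in *yap1*, 24144, 23285 and 25251 in YAP1 OE, and 638, 635 and 722 in WT with vector.

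**Figure D1:**
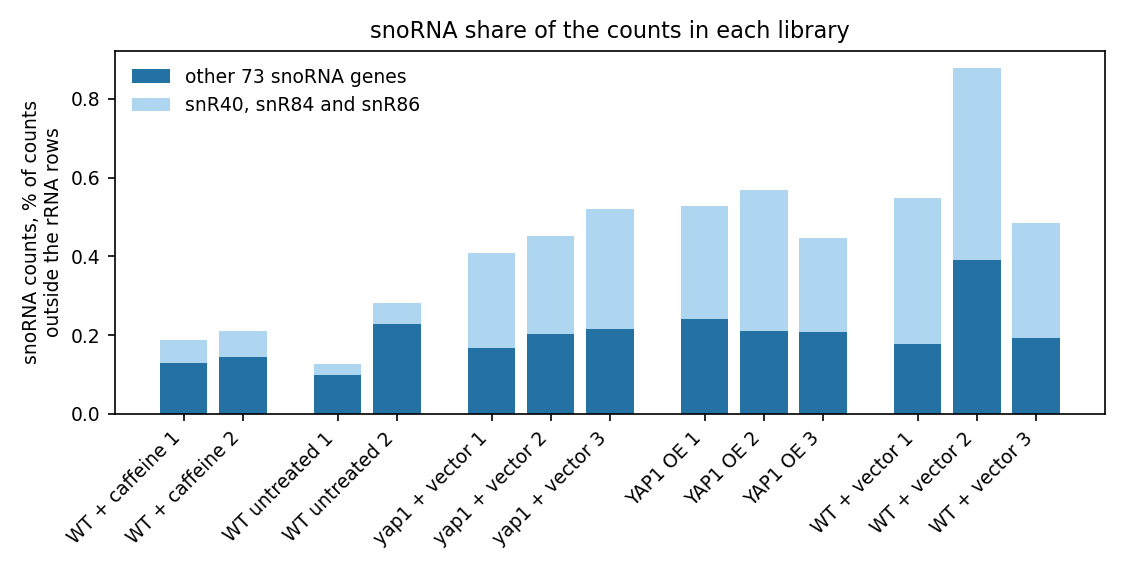
Counts on snoRNA rows as a percentage of the counts outside the 15 rRNA rows (y axis) in each of the 13 libraries (x axis), with snR40, snR84 and snR86 in the light part of each bar and the other 73 snoRNA genes in the dark part. Replicate 2 of untreated WT (0.282%) and replicate 2 of WT with vector (0.879%) are the highest of their groups, and the light part makes up between 53.1% and 67.6% of each bar with plasmid and between 19.3% and 32.2% of each bar without.

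Counts were spread unevenly over the members. Because priming depends on A stretches, the counts of different snoRNA genes do not rank their abundance, and each gene is compared between groups only. In the plasmid libraries, the C/D member snR40, which guides methylation of both rRNAs, and the H/ACA members snR84 and snR86, which guide pseudouridylation of the 25S rRNA, held 58.1% of all snoRNA counts. With snR46 and snR51, the 5 members with the highest mean CPM held 65.6%. In the libraries without plasmid, snR86, snR84 and snR43 held 27.2%. At the low end, snR59 had 0 to 30 counts in the plasmid libraries and 1 to 19 counts in the others and was the only member that did not pass the filter on low counts in any comparison.

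snR40 and snR84 also varied between plasmid libraries of 1 group. snR40 had 312, 370 and 458 CPM in *yap1*, 396, 616 and 211 CPM in YAP1 OE, and 914, 403 and 454 CPM in WT with vector. Replicate 1 of WT with vector was the highest, replicate 3 of YAP1 OE was the lowest, and the groups overlapped. The same 2 libraries had the highest and the lowest share of counts on rRNA rows, 74.97% and 43.84%, and the part of this in the snR40 values was not tested. snR84 had 386, 416 and 430 CPM in *yap1*, 450, 455 and 470 CPM in YAP1 OE, and 376, 705 and 450 CPM in WT with vector, so that replicate 2 of WT with vector was highest.

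Caffeine-treated WT was first compared with untreated WT. The test was edgeR's quasi-likelihood test with Benjamini-Hochberg adjustment over all 6759 genes tested, and a gene was called at an adjusted p under 0.05. Of the 75 members tested, 28 fell and 3 rose. Falls thus made up 37.3% of members, against 23.6% of all genes tested, and rises made up 4.0% of members, against 22.2% of all genes tested. The median log2 fold change of the members was -1.12, with 67 of 75 below 0, and that of all genes tested was -0.003. All 3 members that rose were H/ACA snoRNAs, and 23 of the 28 that fell were C/D snoRNAs.

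Both the count and the median depended on which untreated library was used. Without replicate 2 of untreated WT, the median of the members was -0.35, with 47 of 75 below 0. That of all genes tested was 0.08. All 28 members that fell in the full comparison stayed below 0 without this library, at a median log2 fold change of -1.43. Without replicate 1 of untreated WT, the median of the members was -1.58, against 0.09 for all genes tested. Without replicate 1 and replicate 2 of caffeine-treated WT in turn, it was -1.05 and -1.51, against -0.03 each time. The share of members called lower was below that of all genes tested without replicate 2 of untreated WT. The same held without replicate 1 of caffeine-treated WT, and the share was above it when either other library was left out. The 6 members snR67, snR77, snR76, snR74, snR87 and snR17b were called lower whichever library was left out, and snR11 was called higher each time. Of the 75 members, the groups did not overlap for 43 in the direction of a fall and 5 in the direction of a rise, where 37.3% and 37.6% of all genes tested did so.

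The number of calls also changed with the scaling, whereas the median of the members stayed below 0 with scaling by library size. With scaling by library size only, 16 members fell and 5 rose, where 1086 of all 6759 genes tested fell and 2181 rose. The median of the members was -0.79, and that of all genes tested moved to 0.37. Of the 75 members, 61 were below 0, against 67 in the main fit. With library sizes set on the snoRNA rows themselves, which centres the members by construction and was chosen after the data were seen, the median of all genes tested was 0.89 and that of the members was 0.05. Since this follows from the construction, it bears only on differences among the members. On that scale 2 members, snR77 and snR67, were lower in caffeine-treated WT and none was called higher by edgeR. Among all 6759 genes tested, 71 were lower and 859 higher. At an unadjusted p under 0.05 (edgeR) were 11 of the 75 members, against 1973 of all genes tested.

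**Figure D2:**
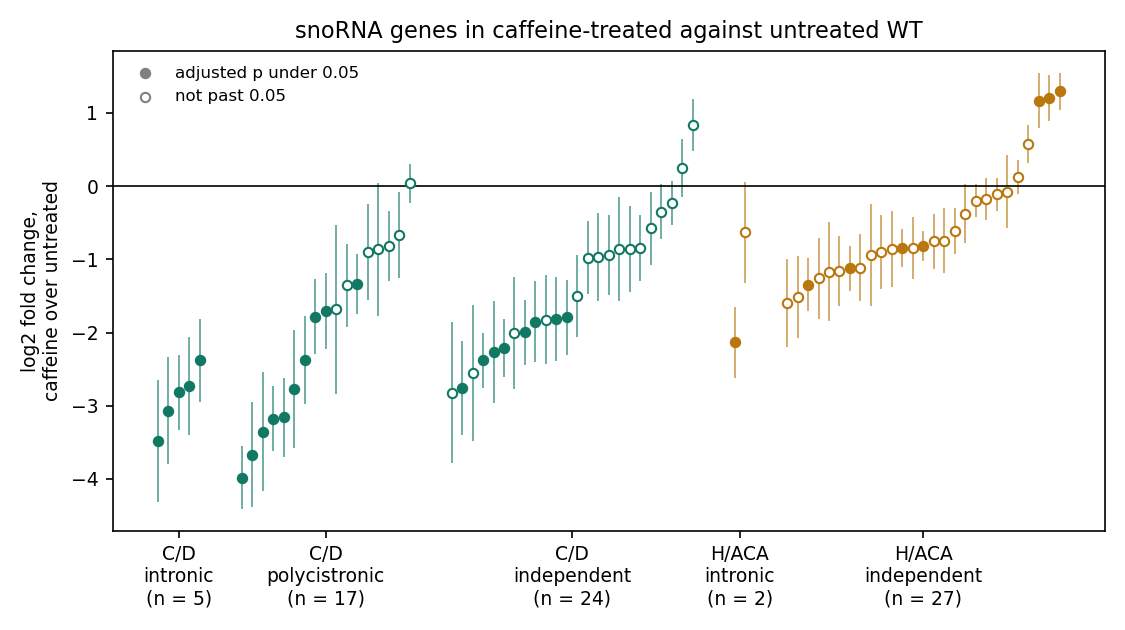
Log2 fold change of caffeine-treated over untreated WT with its standard error (y axis) for the 75 snoRNA genes tested, in columns by box class and gene arrangement and ordered by size within each. Filled points passed an adjusted p of 0.05 (28 below 0, 3 above 0); C/D members in introns and in polycistronic units lie lowest. The median of the members is -1.12, and 0.05 on the scale set by the snoRNA rows themselves, which centres them by construction.

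The 2 box classes had different medians. The median log2 fold change was -1.80 for the 46 C/D members tested, of which 23 were lower and 0 higher, and -0.82 for the 29 H/ACA members, of which 5 were lower and 3 higher. Among independent genes alone the medians were -1.65 for 24 C/D and -0.82 for 27 H/ACA members. Without replicate 2 of untreated WT, the medians were -0.79 for C/D members and 0.03 for H/ACA members, against 0.08 for all genes tested. Without replicate 1 they were -2.33 and -1.15, against 0.09 for all genes tested. The difference between the classes was described only and was not tested.

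The members with the largest falls came from polycistronic units and introns. snR77, which guides methylation of the 18S rRNA, had 87 and 56 counts (4.70 and 3.01 CPM) in caffeine-treated WT and 595 and 1290 counts (41.5 and 79.7 CPM) in untreated WT. Both caffeine libraries lay far below both untreated libraries. The log2 fold change was -3.98 ± 0.43 (SE, adjusted p = 0.00129 by edgeR's quasi-likelihood test), and -3.38 without replicate 2 of untreated WT (edgeR, adjusted p = 0.0108).

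snR67, a guide for 2 sites in the 25S rRNA, had 1.78 and 3.01 CPM in caffeine-treated WT against 12.3 and 48.6 CPM in untreated WT. The untreated libraries differed widely from each other but did not overlap the treated ones. Its log2 fold change was -3.67 ± 0.72 (SE, edgeR adjusted p = 0.00922), and -2.29 without replicate 2 of untreated WT (edgeR, adjusted p = 0.0338). Its neighbour in the same unit, snR53, is a low-count gene with 3 and 20 counts in caffeine-treated WT and 10 and 25 counts in untreated WT, and was not called.

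snR76 and snR74 showed the same order of libraries at lower levels. snR76 had 2.05 and 1.61 CPM in caffeine-treated WT and 11.0 and 22.1 CPM in untreated WT, with a log2 fold change of -3.17 ± 0.45 (SE, edgeR adjusted p = 0.00272). snR74 had 14 and 13 counts in caffeine-treated WT and 58 and 145 counts in untreated WT, with a log2 fold change of -3.16 ± 0.54 (SE, edgeR adjusted p = 0.00536). snR73, which guides methylation of the 25S rRNA, had 11 and 31 counts in caffeine-treated WT and 68 and 297 counts in untreated WT, and its log2 fold change of -3.35 (edgeR adjusted p = 0.0187) no longer passed without replicate 2 of untreated WT (-1.99, edgeR adjusted p = 0.12). snR54 had 4 and 3 counts in caffeine-treated WT and 14 and 54 counts in untreated WT, and its log2 fold change of -3.48 (edgeR adjusted p = 0.017) was likewise not past the threshold without that library (-2.28, edgeR adjusted p = 0.127).

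Of these snoRNAs, snR77, snR76, snR74 and snR73 come from the unit snR78-snR77-snR76-snR75-snR74-snR73-snR72, in which 7 C/D snoRNAs are cut from 1 transcript. All 7 members fell, with log2 fold changes between -3.98 and -1.34 and a median of -3.16. The summed level of the unit was 18.04 and 13.01 CPM in caffeine-treated WT, against 78.6 and 163.6 CPM in untreated WT. The members differed in size of change within the unit. snR72 and snR75, with log2 fold changes of -1.34 and -1.70, had 3.94 and 2.15 CPM and 4.81 and 2.69 CPM in caffeine-treated WT, against 6.91 and 8.41 CPM and 7.33 and 16.9 CPM in untreated WT. Without replicate 2 of untreated WT, all 7 stayed below 0 at a median of -1.99, and snR77, snR76 and snR74 were still called.

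**Figure D3:**
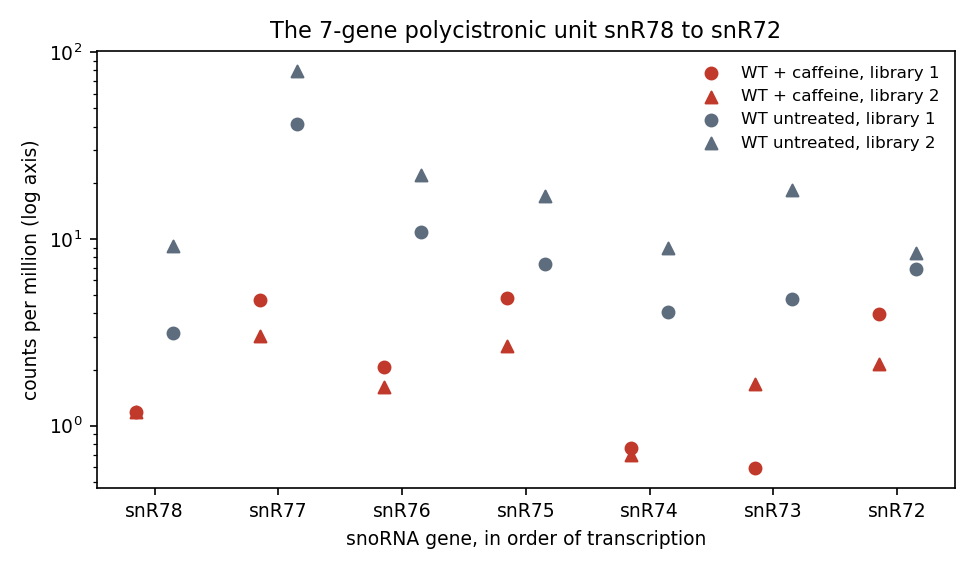
CPM on a log axis (y axis) for the 7 snoRNA genes of the unit snR78 to snR72 in order of transcription (x axis), with caffeine-treated WT in red to the left and untreated WT in grey to the right at each gene, and a circle for library 1 and a triangle for library 2. Both red points lie below both grey points at every gene, and the gap is widest at snR77.

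The other polycistronic units moved less evenly. In the unit snR190-snR128, both members fell, snR128 (U14, needed for processing of the 18S rRNA) with 4.65 and 6.88 CPM in caffeine-treated WT against 11.5 and 66.8 CPM in untreated WT, and snR190 with 4.75 and 5.43 CPM against 9.14 and 25.7 CPM. Their log2 fold changes of -2.77 (edgeR adjusted p = 0.0339) and -1.78 (edgeR adjusted p = 0.0332) were -0.93 and -0.79 without replicate 2 of untreated WT, with adjusted p of 0.167 and 0.181 by edgeR. In the units snR41-snR70-snR51 and snR57-snR55-snR61, no member was called. snR70 showed how far 1 library can stand out, with 282 and 1024 counts in caffeine-treated WT and 222 and 3386 counts in untreated WT.

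The intronic members were set beside their hosts, since reads from unspliced host transcripts fall on both. Of the 7 intronic members tested, 6 fell, and all 8 host genes fell. Over all libraries the log2 fold changes were -2.38 for snR18 and -2.51 for *EFB1*, -3.07 for snR39 and -3.09 for *RPL7A*, and -2.82 for snR38 and -2.89 for *TEF4*. The values of snR18 and snR39 moved with the untreated library used, and those of their hosts hardly did. Without replicate 2 of untreated WT, snR18 was at -1.23 and *EFB1* at -2.50, and snR39 at -2.12 and *RPL7A* at -2.98. Without replicate 1, snR18 was at -2.94 and *EFB1* at -2.43, and snR39 at -3.57 and *RPL7A* at -3.09. *EFB1* and *TEF4* encode translation elongation factors and *RPL7A* a ribosomal protein. snR44 fell by 2.14 on the log2 scale, where its host *RPS22B*, also a ribosomal protein gene, fell by 0.78. snR54 and snR24 were below their hosts too, with -3.48 for snR54 and -2.44 for *IMD4*, and -2.73 for snR24 and -2.06 for *ASC1*. Without replicate 2 of untreated WT, snR54 was at -2.28 and *IMD4* at -2.36, and snR24 at -2.135 and *ASC1* at -1.83. snR191 was above its host, at -0.63 (edgeR adjusted p = 0.491, not called), where *NOG2*, which encodes a GTPase of 60S assembly, fell by 2.27. snR191 was at 0.43 without replicate 2 and at -1.16 without replicate 1 of untreated WT, and *NOG2* and *RPS22B* were called in neither case. The differences between members and hosts were not tested.

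The counts behind these pairs were very unequal. snR38 had 6 and 10 counts in caffeine-treated WT and 41 and 53 counts in untreated WT, and *TEF4* had between 3938 and 29094 counts per library. snR18, the intronic member with most counts, had 3.32% and 6.16% of the count of *EFB1* in caffeine-treated WT and 1.88% and 6.48% in untreated WT, and the groups overlapped in this ratio. None of the 6 intronic falls was called without replicate 2 of untreated WT, where snR38 came closest (-2.65, edgeR adjusted p = 0.0522).

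**Figure D4:**
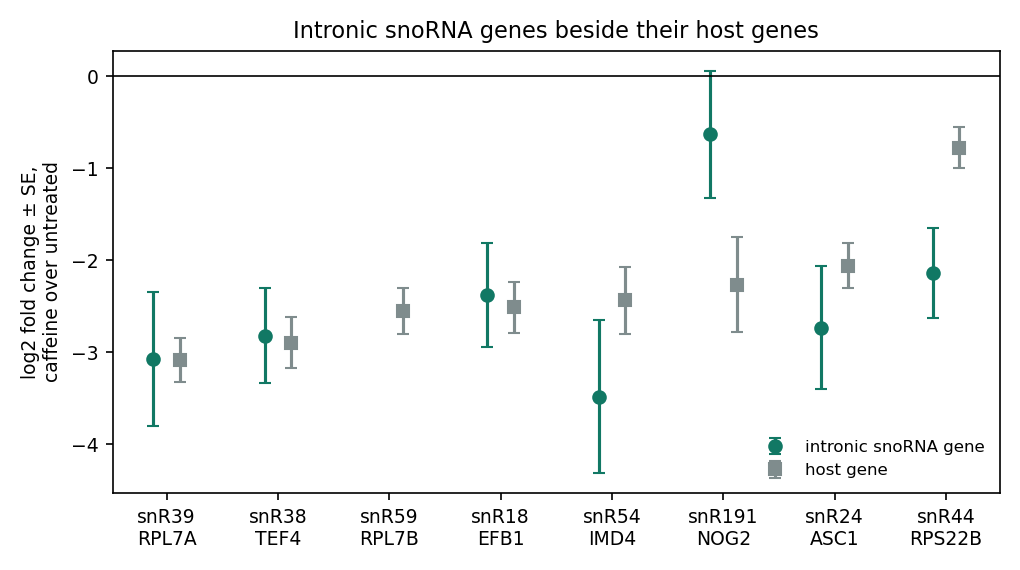
Log2 fold change of caffeine-treated over untreated WT with its standard error (y axis) for each intronic snoRNA gene (green circles) and its host gene (grey squares), ordered by the host. All hosts are below 0, and snR39, snR38 and snR18 lie at the height of their hosts in this fit of all 4 libraries. snR44, snR54 and snR24 lie below their hosts, and snR191 lies above its host. snR59 has no value because its counts were too low to test.

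Among the snoRNAs needed for processing of the rRNA precursor, snR17b, 1 of the 2 genes of U3, was called lower. It had 3.62 and 3.17 CPM in caffeine-treated WT and 12.6 and 22.6 CPM in untreated WT, with a log2 fold change of -2.38 ± 0.38 (SE, edgeR adjusted p = 0.00406) and -1.83 without replicate 2 of untreated WT (edgeR adjusted p = 0.0271). snR17a had 12.9 and 12.4 CPM in caffeine-treated WT, between the 9.84 and 39.3 CPM of untreated WT, and was not called (-0.97, edgeR adjusted p = 0.237). Without replicate 2 of untreated WT, snR17a had a log2 fold change of 0.42 (edgeR adjusted p = 0.342), and without replicate 1 it was lower at -1.60 (edgeR adjusted p = 0.0189). The difference between the copies was not tested. Their last 60 bases, shown with the D box in capitals, are identical at 52 positions with a longest shared run of 31, so that reads of one copy may also align to the other.
snR17a: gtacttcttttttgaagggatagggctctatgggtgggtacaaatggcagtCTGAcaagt
snR17b: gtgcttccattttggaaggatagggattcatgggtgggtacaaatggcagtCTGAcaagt

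Each U3 gene has its own neighbour. snR17a overlaps *IRC13* on the same strand, and the 3′ end of *POC4*, a gene for a proteasome assembly factor, faces snR17b at 129 bases on the opposite strand. *POC4* fell as well, with 3.78 and 4.78 CPM in caffeine-treated WT, 23.8 and 30.5 CPM in untreated WT, and a log2 fold change of -2.67 ± 0.28 (SE, edgeR adjusted p = 0.00115). Its part in the snR17b counts was not tested. The H/ACA members snR30 and snR10, which are also needed for rRNA processing, had log2 fold changes of -1.11 (edgeR adjusted p = 0.0934) and -1.25 (edgeR adjusted p = 0.114). Neither was called by edgeR, and both passed with DESeq2, at adjusted p of 0.044 and 0.0497.

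The 3 members that rose are independent H/ACA genes. snR11, which guides a pseudouridine in the 25S rRNA, had 1619 and 1199 counts (87.5 and 64.4 CPM) in caffeine-treated WT and 393 and 552 counts (27.4 and 34.1 CPM) in untreated WT. Its libraries did not overlap, and it was 2.46-fold higher (log2 fold change 1.30 ± 0.25 SE, edgeR adjusted p = 0.00824). The mitochondrial protein gene *CMC4*, whose 3′ end faces snR11 at 61 bases on the opposite strand, rose as well, with 58.8 and 44.0 CPM in caffeine-treated WT against 22.7 and 27.3 CPM in untreated WT (log2 fold change 1.03, edgeR adjusted p = 0.0153). Since strand was not counted, the part of *CMC4* in this result was not tested.

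snR5 and snR83 also rose, and only the nearest gene facing each within 300 bases, if any, was examined. snR5, a guide for 2 sites in the 25S rRNA, had 577 and 692 counts (31.2 and 37.2 CPM) in caffeine-treated WT and 154 and 304 counts (10.7 and 18.8 CPM) in untreated WT. It was 2.30-fold higher (log2 fold change 1.20, edgeR adjusted p = 0.0233), and no gene pointed its 3′ end at snR5 within 300 bases. snR83, a guide for 2 sites in the 18S rRNA, had 706 and 887 counts (38.1 and 47.7 CPM) in caffeine-treated WT and 173 and 418 counts (12.1 and 25.8 CPM) in untreated WT, and was 2.25-fold higher (log2 fold change 1.17, edgeR adjusted p = 0.0496). *SSO2*, which faces snR83 at 266 bases, had a log2 fold change of -0.59 and was not called.

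For both members the lowest caffeine library was above the highest untreated one, and without replicate 2 of untreated WT the log2 fold changes were 1.73 for snR5 and 1.89 for snR83. The adjusted p of snR83 was close to the threshold, however, and leaving out any of the other 3 libraries ended the call of both genes (adjusted p from 0.0506 to 0.166 by edgeR).

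Of the 5 members with the highest mean CPM, none was called by edgeR. snR86 had 255 and 260 CPM in caffeine-treated WT against 145 and 199 CPM in untreated WT (log2 fold change 0.58, edgeR adjusted p = 0.117), and the groups did not overlap. The 3′ end of *FAA4* faces it at 218 bases and fell, with a log2 fold change of -1.80 (edgeR adjusted p = 0.0115). snR40 had 25.4 and 34.1 CPM in caffeine-treated WT and 43.7 and 165.6 CPM in untreated WT (log2 fold change -1.82, edgeR adjusted p = 0.0527), and DESeq2 called it lower (adjusted p = 0.00277). Without replicate 2 of untreated WT it was at -0.49 (edgeR adjusted p = 0.269), and without replicate 1 at -2.44 (edgeR adjusted p = 0.0133). snR84, snR46 and snR51 had log2 fold changes of 0.12, -0.75 and 0.04.

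The annotated neighbourhood of the members was compared with their calls as a description. For 25 members, a gene with its own count row and outside their unit pointed its 3′ end at them within 300 bases. snR53, whose facing gene was matched to no count row, was kept with the other members. The 25 include snR33, whose facing gene *SUF16* was matched to a count row in the plasmid libraries only. Among the 25, 2 members rose and 6 fell, with a median log2 fold change of -0.82, and in the other 50 members tested 1 rose and 22 fell, with a median of -1.55. The 65 members that overlap no other annotated gene had 3 rises and 22 falls, with a median of -0.94. The Tbf1 motif ACCCTAA or its variant GCCCTAA lay within 250 bases upstream of 11 of 68 members outside introns, on either strand, and of 2.89% of 6021 protein-coding genes. The median log2 fold change was -0.94 for the 11 members with the motif, with 4 lower and 1 higher, and -0.98 for the 57 without it, with 18 lower and 2 higher. These medians and counts depended on which untreated library was used. Without replicate 2, the median of all genes tested was 0.08. The medians were then -0.12 for the 25 members with a facing gene and -0.47 for the other 50. For the 65 members without overlap the median was -0.25. With the Tbf1 motif it was 0.06, and without it -0.25. Without replicate 1, the median of all genes tested was 0.09. The medians were then -1.12 with a facing gene and -2.15 for the other 51 members. They were -1.44 without overlap, -1.34 with the motif and -1.53 without it.

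The protein genes of the snoRNA pathway were examined in the same comparison. Of 38 genes for core proteins, assembly, termination, trimming and related steps, 23 fell and 1 rose. Over all genes tested, 23.6% fell and 22.2% rose. The median log2 fold change of the 38 genes was -1.41. It was -1.23 without replicate 1 of untreated WT, against 0.09 for all genes tested, and -1.57 without replicate 2, against 0.08. All 4 C/D core protein genes fell, of which 2 were called without replicate 1 and 3 without replicate 2 of untreated WT. *NOP1*, the methyltransferase gene, averaged 28.9 ± 26.3 CPM in caffeine-treated WT and 170.4 ± 85.3 CPM in untreated WT (SD, n = 2 each). The log2 fold changes were -2.57 for *NOP1*, -2.83 for *NOP56*, -2.50 for *NOP58* and -1.67 for *SNU13*. All 4 H/ACA core protein genes fell as well, with log2 fold changes between -2.83 for *CBF5*, the pseudouridine synthase gene, and -1.38 for *NOP10*. Both U3 protein genes, *RRP9* and *MPP10*, fell, with log2 fold changes of -2.24 and -2.01.

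Of the 10 genes for 3′ trimming and polyadenylation, 7 fell, and the change was uneven within the TRAMP complex. *MTR4*, its helicase, fell most among the 38 genes (27.4 and 16.8 CPM in caffeine-treated WT against 294.8 and 188.9 CPM in untreated WT, log2 fold change -3.46, edgeR adjusted p = 0.00129), and *AIR1* and the poly(A) polymerase gene *TRF5* had log2 fold changes of -3.05 and -2.82. The related genes *AIR2* and *PAP2* had log2 fold changes of 0.13 and -0.41 and were not called. *RRP6*, the nuclear exosome exonuclease, fell by 2.16 on the log2 scale.

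Of the termination genes, *SEN1* fell by 2.15, and *NRD1* and *NAB3* were at -0.09 and 0.10. Of the 9 assembly genes, 3 fell and *PIH1* rose (log2 fold change 0.72, not called by edgeR when either untreated library was left out). Of the 5 genes for processing nucleases and cap formation, *RNT1* and *RAT1* fell. *TBF1* was at -0.31 and was not called. Of 10 other small noncoding RNA rows, only the 2 forms of the U5 RNA snR7 fell, by 2.02 and 2.04, with 0 of the 10 called lower by edgeR without replicate 2 and 4 without replicate 1 of untreated WT, whereas the U2 RNA *LSR1* was at 0.42 and the telomerase RNA *TLC1* at 0.08, neither of which was called.

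The *yap1* mutant and YAP1 OE were each compared with the same 3 libraries of WT with vector, and their values are therefore not independent of each other. In *yap1*, none of the 75 members tested was called by edgeR, and 5 had an unadjusted p under 0.05. DESeq2 called none of the 55 members to which it gave an adjusted p and left 21 without one, snR69 among them. Over all 6781 genes tested, 0.0737% were called in that comparison (0.059% higher and 0.0147% lower), and 10.2% had an unadjusted p under 0.05. The median log2 fold change of the members was -0.29, and 0.03 without replicate 2 of WT with vector. The groups did not overlap for 1 member in the direction of a rise and 4 in the direction of a fall, where 7.49% and 7.89% of all genes tested did so (15.4% in all).

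In YAP1 OE, none of the 75 members was called by edgeR, 4 had an unadjusted p under 0.05, and DESeq2 called 1, snR82, as higher. Over all genes tested, 0.472% were called in this comparison (0.442% higher and 0.0295% lower), and 9.42% had an unadjusted p under 0.05. The median log2 fold change was -0.15, and 0.18 without replicate 2 of WT with vector. It was 0.21 with scaling by library size only, where the median of all genes tested was 0.45. The groups did not overlap for 2 members in each direction, where 8.07% of all genes tested were apart in the direction of a rise and 7.05% in that of a fall (15.1% in all).

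The C/D snoRNA snR69, which guides methylation of the 25S rRNA, had the smallest p in *yap1*. It had 19, 11 and 15 counts in *yap1*, 19, 20 and 44 counts in YAP1 OE, and 48, 61 and 44 counts in WT with vector. In CPM, both the *yap1* and the YAP1 OE libraries lay below the libraries of WT with vector. The log2 fold change was -1.99 ± 0.48 in *yap1* (SE, edgeR adjusted p = 0.152) and -1.21 ± 0.46 in YAP1 OE (SE, edgeR adjusted p = 0.44), so that neither passed the threshold.

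snR78 and snR8 followed with smaller differences. snR78 had 7.005, 8.84 and 11.8 CPM in *yap1* against 21.8, 14.2 and 12.9 CPM in WT with vector (log2 fold change -0.82 ± 0.25 SE, edgeR adjusted p = 0.255). The H/ACA member snR8 had 17.6, 22.2 and 22.7 CPM in *yap1*, 21.5, 19.7 and 21.0 CPM in YAP1 OE, and 22.6, 42.1 and 27.3 CPM in WT with vector. Its log2 fold changes of -0.57 in *yap1* and -0.57 in YAP1 OE were -0.25 in both without replicate 2 of WT with vector.

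snR82, an H/ACA guide for 3 sites in the 25S rRNA, was the only member called among the plasmid libraries. It had 233, 277 and 282 counts in *yap1*, 492, 473 and 546 counts in YAP1 OE, and 184, 329 and 275 counts in WT with vector. In CPM these were 9.83, 12.2 and 13.4 in *yap1*, 19.996, 21.4 and 21.7 in YAP1 OE, and 12.4, 14.5 and 12.9 in WT with vector. The 3 YAP1 OE libraries were close together and above all the others, whereas *yap1* and WT with vector overlapped.

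In *yap1* against YAP1 OE, snR82 had a log2 fold change of -0.83 ± 0.17 (SE, edgeR adjusted p = 0.0453), where 0.973% of all 6781 genes tested were called (0.31% higher and 0.664% lower). At an unadjusted p under 0.05 were 2 members, against 7.89% of all genes tested. The groups were apart for 1 member in the direction of a rise and 7 in that of a fall, against 8.98% and 9.94% of all genes tested (18.9% in all). In YAP1 OE against WT with vector it was 0.66 ± 0.17 (SE, edgeR adjusted p = 0.224), and in *yap1* against WT with vector -0.17 ± 0.17 (SE, edgeR adjusted p = 0.73). The call in *yap1* against YAP1 OE ended when any 1 of the 6 libraries was left out (adjusted p from 0.103 to 0.212 by edgeR), with log2 fold changes between -0.93 and -0.72. It also ended with scaling by library size only, with scaling on the snoRNA rows and with a replicate block. The call was kept with DESeq2 (adjusted p = 0.000698) and by edgeR on only the 6 libraries compared (adjusted p = 0.00311). *LSG1* ends 234 bases from snR82 on the same strand. It had 30.7, 27.9 and 28.1 CPM in *yap1* and 31.5, 20.1 and 24.8 CPM in YAP1 OE, so the 2 groups overlapped.

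**Figure D5:**
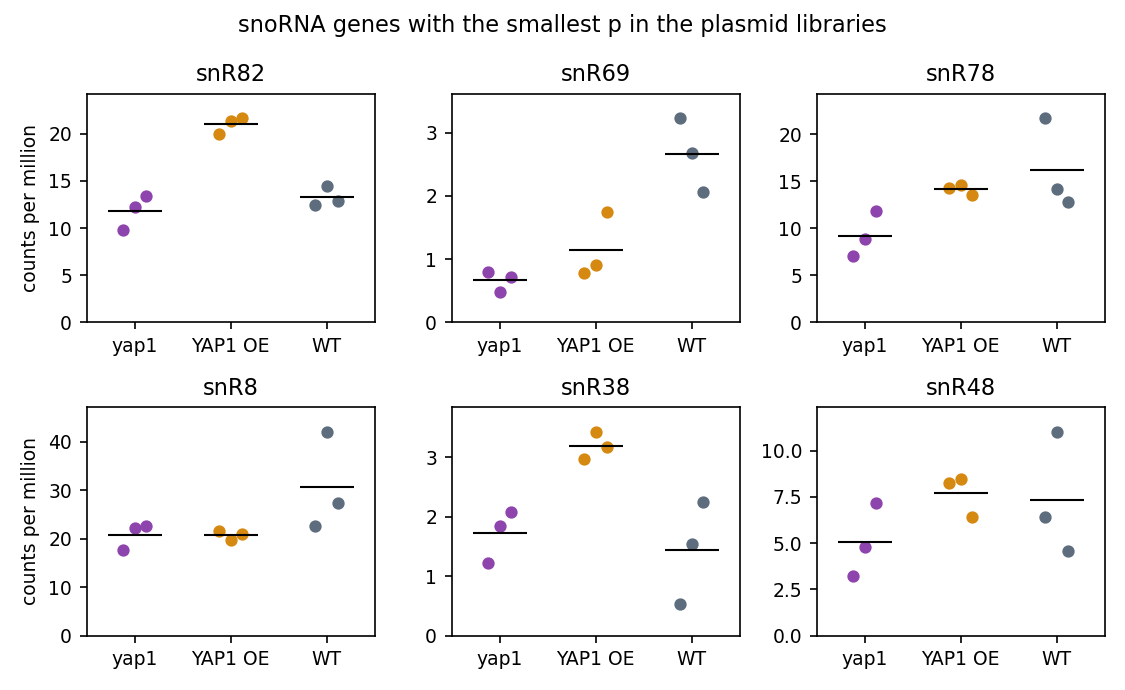
CPM (y axis, from 0) of 6 snoRNA genes in *yap1* with vector, YAP1 OE and WT with vector (x axis). Each was called by edgeR or was among the 3 uncalled members with the smallest unadjusted p in a comparison of the plasmid libraries. Points are the 3 libraries of each group and the line is their mean. The YAP1 OE points of snR82 (19.996 to 21.7 CPM) lie above all others, and 1 library of WT with vector stands high for snR8.

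The members next in order in *yap1* against YAP1 OE were snR78 (log2 fold change -0.62), snR38 (-0.89) and snR48 (-0.61), with adjusted p of 0.481, 0.758 and 0.896 by edgeR. snR38 had 29, 42 and 44 counts in *yap1*, 73, 76 and 80 counts in YAP1 OE, and 8, 35 and 48 counts in WT with vector, so that YAP1 OE was above both other groups without passing the test. Its host *TEF4* was not called in any comparison of the plasmid libraries. The processing snoRNAs snR17a, snR17b, snR128, snR30 and snR10, together with snR190 of the snR128 unit, had log2 fold changes between -0.66 and 0.14 in *yap1*, and between -0.60 and 0.05 in YAP1 OE, each against WT with vector, and none was called. In the unit snR78 to snR72, the log2 fold changes were between -0.82 and -0.16 in *yap1*, with a median of -0.38, and between -0.38 and 0.16 in YAP1 OE, with a median of -0.13. None of the 38 protein genes of the snoRNA pathway and none of the 8 host genes was called by edgeR in any of these comparisons.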

How the data were processed

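Libraries from poly(A)-primed QuantSeq cDNA were aligned by the authors with Bowtie2 to sacCer3, and Bedtools counted reads, unique and multiple alignments together and without regard to strand. The authors deposited raw counts per gene, and the submitters' processing notes name both tools and the build. Versions and the counting annotation are not given in the sources used here. Names of 169 rows differed between the files and were joined by position. A table of another study with 30 per-sample columns was not used.

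Counts were fitted with edgeR 4.0.16 (R 4.3.3, limma 3.58.1) with filterByExpr, TMM and the robust quasi-likelihood test over all genes, 9 plasmid and 4 other libraries apart. A gene was called at a Benjamini-Hochberg adjusted p under 0.05. SE is the absolute log2 fold change over the square root of F. The biological coefficient of variation was 25.1% without plasmid and 25.8% with it. The median member had between 86.5 and 291 counts per library, so low members are imprecise. Alternatives were DESeq2 1.42.0, other scalings, no filter, no rRNA rows, a replicate block and leaving out each library. Members named were, per comparison, the 5 at most that rose most and the 5 at most that fell most of those past the threshold with a mean of at least 10 counts and groups that do not overlap, the 3 with the smallest p where fewer than 3 passed, the processing members with snR190, the intronic members, the polycistronic units, and the 5 with the highest mean CPM. snR53, snR70 and snR74 and single values within units were chosen after their values were seen. Members and lists were chosen with earlier results of these data known. Sequences and annotation came from RefSeq R64.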

Additional observations from a re-analysis of the deposited data

How the results depend on the processing

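The number of snoRNA genes called lower after caffeine depended on the scaling and on single libraries. With scaling by library size only, 16 members were lower and 5 higher and the median stayed below 0. Of all 6759 genes tested, 1086 were lower and 2181 higher on that scale. With scaling on the snoRNA rows, chosen after the data were seen and centring the members by construction, 2 were called, 2 lower and 0 higher. Of all 6759 genes tested, 71 were lower and 859 higher on this scale. The median of the members was 0.046, with log2 fold changes of 0.38 for snR46, 0.046 for snR30 and 0.30 for snR17a. Leaving out 1 library at a time gave between 9 and 36 calls, between 1 and 3 higher, between 6 and 35 lower and a median between -1.58 and -0.35. The log2 fold changes were then between -0.03 and 0.41 for snR84, -1.21 and 0.10 for snR46, -1.60 and 0.42 for snR17a, and -0.21 and 0.46 for snR51. These settings leave an arm with 1 library, which is assumed to vary like the other group. Fewer of all genes tested were called in each of them than with all 4 libraries, and their median stayed between -0.03 and 0.09. The share of members called lower was below that of all genes tested without replicate 2 of untreated WT. It was also below without replicate 1 of caffeine-treated WT, and above when either other library was left out.

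Among the plasmid libraries, leaving out 1 library gave medians between -0.42 and 0.034 for *yap1* against WT with vector, -0.30 and 0.18 for YAP1 OE against WT with vector, and -0.19 and 0.02 for *yap1* against YAP1 OE, with 0 members called by edgeR. DESeq2 called 1 member, higher, in YAP1 OE against WT with vector, where scaling by library size only gave a median of 0.21. In *yap1* against YAP1 OE, 0 members were called, and 0 lower, with scaling by library size only or on the snoRNA rows. Taken as a share of all counts, rRNA rows included, snoRNA rows averaged 0.1498% in caffeine-treated WT (0.137% and 0.162%), between the untreated libraries (0.104% and 0.241%, mean 0.172%), and 0.211% in *yap1*, 0.242% in YAP1 OE and 0.213% in WT with vector.

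Same-numbered libraries were not taken as pairs. The correlation of their deviations was 0.41 for caffeine, where 2 libraries per group force both pairs to the same value. For *yap1* and WT with vector the correlations were between -0.25 and 0.18, and between -0.22 and 0.33 for different numbers. For YAP1 OE and WT with vector these ranges were -0.11 to 0.12 and -0.14 to 0.16. For *yap1* and YAP1 OE they were -0.17 to -0.06 and -0.04 to 0.12. With a replicate block, 41 of the 75 members were lower and 5 higher after caffeine. Of all 6759 genes tested, 1966 were lower and 1903 higher in that setting. In *yap1* against YAP1 OE, 0 members were called, and 0 lower, and 0 were called in either comparison with WT with vector. The cause of these differences was not tested. Shallow members limit what can be seen, since several had under 10 counts in a library.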
